A study of Mus musculus with 12 samples.

Results

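Chemokines are small secreted proteins that attract cells, and they were followed here together with their receptors in whole-liver RNA-seq of mice given acetaminophen. Members were all rows of the deposited count table whose symbol begins with Ccl, Cxcl, Xcl, Cx3cl, Ccr, Cxcr, Cx3cr or Ackr and goes on with a number and at most 1 letter from a to d, with Ccr4 and Ccrl names left out. The rule gave 59 of 55401 genes, of which 39 encode ligands, 16 signalling receptors and 4 atypical receptors. A mean of 0.2 CPM (the count scaled to a common library size, with TMM adjustment) or more in any group was reached by 37 members. The filter on low counts let 39 members be tested, among 17585 genes. Of the others, 15 had counts but were too low for the test, and 5 (Cxcl15, Ccl1, Ccl20, Ccl26 and Ccr8) were at 0 in all 12 libraries. Members of the chemokine system under other names, such as Pf4, Ppbp, Xcr1 and Ccrl2, lie outside the rule and are given as a list of their own.

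The 12 libraries came from livers of male mice aged 7 to 10 weeks, 3 in each of 4 groups. Control mice carried Fbxl5F/F, loxP-flanked alleles of Fbxl5, whose product senses iron and directs a ubiquitin ligase. FBXL5ΔDC mice carried Cd11c-Cre/Fbxl5F/F, so that Cre follows the promoter of Itgax, the gene of Cd11c, a marker of dendritic cells that some macrophages share. Each genotype was sampled without drug (0 h) and 6 h after acetaminophen (APAP), which injures the liver when overdosed. The protocol names 300 and 500 mg/kg by intraperitoneal injection without saying which dose these mice received, with a 16 h fast before it. The labels do not say if mice sampled at 0 h were fasted. The labels give a number to each replicate but not litters or cages, so p-values measure the spread between these samples.

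Chemokines bind G protein-coupled receptors on leukocytes and set which cells enter a tissue. CXC ligands with a Glu-Leu-Arg (ELR) motif, such as Cxcl1 and Cxcl2, call neutrophils through CXCR2. Cxcl9, Cxcl10 and Cxcl11 are induced by interferons and call activated T cells and NK cells through CXCR3, inflammatory CC ligands such as Ccl2 call monocytes, and the homeostatic ligand Cxcl12 holds CXCR4-bearing cells in place. Atypical receptors (Ackr genes) bind chemokines without G protein signalling and clear or present them. In an injured liver these ligands can come from hepatocytes, Kupffer cells, endothelial cells, stellate cells and infiltrating leukocytes.

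Several members lie side by side in the genome (GRCm38). Cxcl5, Cxcl3, Cxcl15, Cxcl1 and Cxcl2 share chromosome 5 from 90759360 to 90905938, and Cxcl9, Cxcl10 and Cxcl11 share the same chromosome from 92321347 to 92365485. Ccl2, Ccl7, Ccl11, Ccl12, Ccl8 and Ccl1 lie on chromosome 11 from 82035571 to 82305690, followed by Ccl5, Ccl9, Ccl6, Ccl3 and Ccl4 from 83525778 to 83664683. RefSeq promoters (GRCm38.p6) were at hand for 44 of the 59 members, and the 250 bases before each start were searched on both strands. The motifs were the NF-κB consensus, the interferon-stimulated response element (ISRE, written as GAAA, any 2 bases, then GAAA) and the AP-1 site TGANTCA, which reads as an AP-1 site on either strand. An NF-κB match was found in 9 of the 44 members (20.5%, against 4.46% of all 27025 genes in the table), an ISRE match in 3 (6.82%, against 3.46%) and an AP-1 match in 5 (11.4%, against 7.82%). A match is a run of letters and not shown to be bound here.

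The following windows lie before the starts of the ELR neighbours Cxcl1, Cxcl2 and Cxcl3, of Cxcl10 and of Ccl20. They are shown because similar NF-κB matches stand before genes whose levels in these livers were far apart. Each reads 5′ to 3′ along the gene's strand, with the match in capitals.
Cxcl1, NF-κB, chr5:90891149-90891208, plus strand: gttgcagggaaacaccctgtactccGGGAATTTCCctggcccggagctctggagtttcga
Cxcl2, NF-κB, chr5:90903777-90903836, plus strand: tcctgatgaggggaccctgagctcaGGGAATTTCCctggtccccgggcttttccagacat
Cxcl3, NF-κB, chr5:90786003-90786062, plus strand: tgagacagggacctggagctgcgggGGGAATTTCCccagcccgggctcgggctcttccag
Ccl20, NF-κB, chr1:83116661-83116720, plus strand: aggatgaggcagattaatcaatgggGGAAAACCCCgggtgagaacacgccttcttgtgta
Cxcl10, NF-κB, chr5:92349014-92349073, minus strand: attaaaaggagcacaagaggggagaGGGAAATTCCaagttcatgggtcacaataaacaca
Cxcl10, NF-κB, chr5:92348958-92349017, minus strand: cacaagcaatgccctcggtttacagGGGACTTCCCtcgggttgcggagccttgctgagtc
Cxcl10, ISRE, chr5:92349068-92349127, minus strand: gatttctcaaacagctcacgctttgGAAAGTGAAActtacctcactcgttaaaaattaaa
Cxcl1, Cxcl2 and Cxcl3 share the same letters on the plus strand, and a second match shifted by 1 base lies on the other strand of each. The match of Ccl20 lies on the other strand only, so its capitals fit the consensus when read on that strand. Cxcl10 held all 3 motifs, whereas the window of Cxcl9 held none. Cxcl11, Ccl2 and Ccl7 had no entry. The remaining NF-κB matches were before Ackr2, Ccl9, Ccr3 and Ccr6.

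Total counts ran from 67173096 to 72512319 per library. The detection floor was set at a group mean of 12 counts per library, or 3 fragments if each gave 4 counts. That 4 counts come from 1 fragment is an assumption that the counts do not show. Multiples of 4 made up 26.5% to 28.5% of counts from 1 to 40, against 25% for an even spread. The floor came to 0.161 CPM in both control groups and 0.176 and 0.187 CPM in FBXL5ΔDC livers at 0 h and 6 h. This floor covers counting error only. Hepatocyte markers dominated every library, and of 8 dendritic cell markers none was called in any of the 5 comparisons, their summed level staying between 4.90 and 9.03 CPM. Fbxl5 in whole liver did not pass the test between genotypes at 0 h (log2 difference −0.23, adjusted p = 1) or at 6 h (0.23, adjusted p = 0.672), so the genotypes are those of the labels. Itgax, whose promoter drives Cre, had group means of only 0.114 to 0.414 CPM. Mitochondrially encoded genes held 8.94% to 9.43% of counts in treated FBXL5ΔDC livers and 5.32% to 7.05% in the other 9 libraries. Treated control replicate 3 stood apart from the other treated control livers in many members, as the values below show. The member counts that use it are also given without it, as are the members that it moves most.

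At 0 h a few ligand genes, led by the homeostatic Cxcl12, held most of the signal. Cxcl12 was at 231 ± 38.2 CPM (mean ± SD, n = 3 here and below) in control and 238 ± 8.69 CPM in FBXL5ΔDC livers. To compare genes, CPM was divided by the merged length of all annotated exons of the gene. The transcripts expressed may be shorter, so orders between genes are approximate. Per kilobase of exon, Cxcl12 led at 28.2 CPM per kilobase in control livers (range 25.4 to 33.6), followed by Ccl9 at 8.87 (7.67 to 10.1). Their ranges did not overlap. Ccl27a (2.28), Ccl6 (1.87), Cxcl13 (1.66), Cxcl16 (1.07) and Cxcl9 (1.03) followed, and neighbours in this order overlapped in range except Cxcl13 (from 1.33) and Cxcl16 (to 1.21). Members at 0.2 CPM or more numbered 22 in control and 27 in FBXL5ΔDC livers at 0 h, and 31 and 33 at 6 h. Receptors were scarce: the 16 signalling receptors together summed to between 2.39 and 7.49 CPM per library. In whole-liver RNA, fewer cells of a type and less RNA per cell cannot be told apart.

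**Figure D1:**
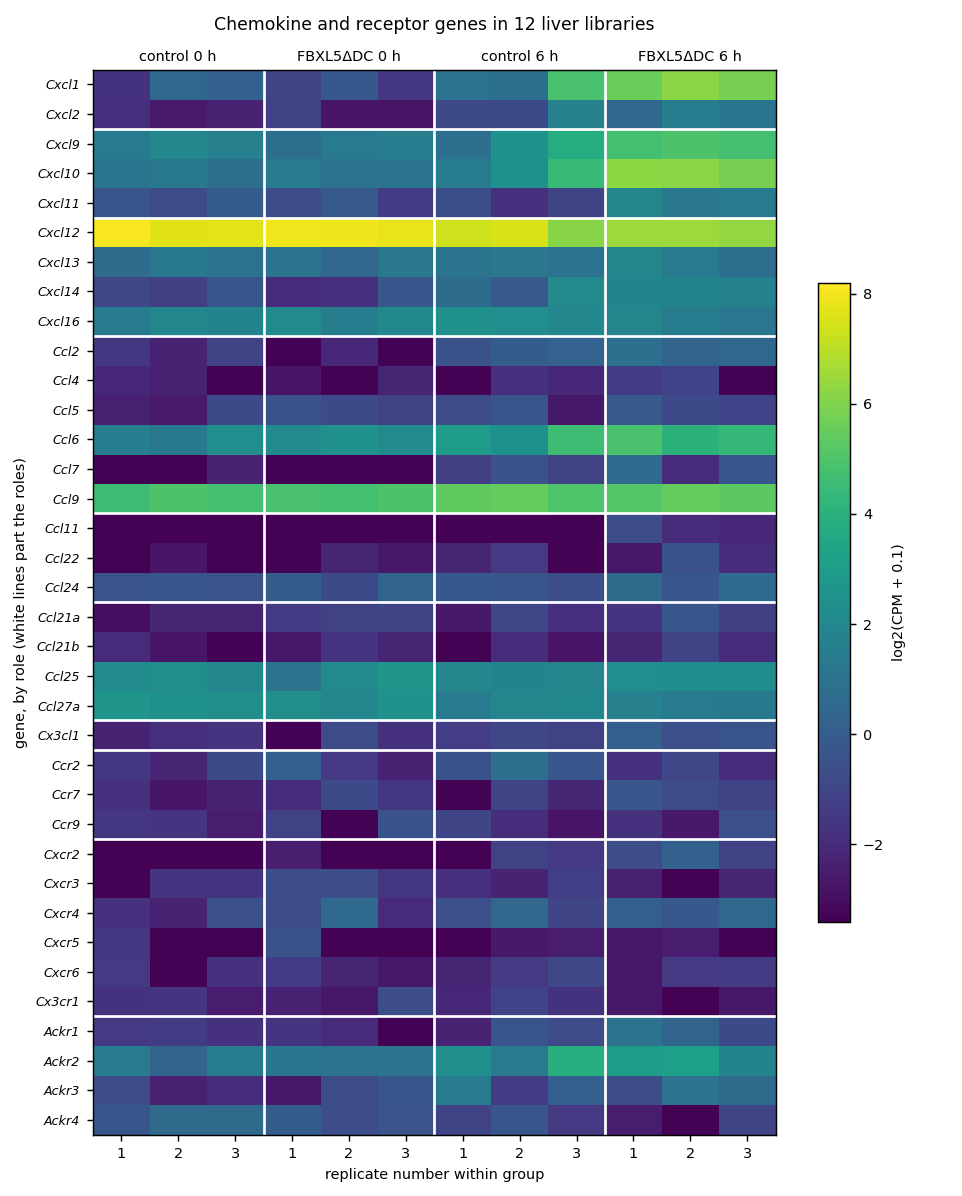
Levels of 36 members with a mean of 0.2 CPM or more in any group, as log2(CPM + 0.1) in each of the 12 libraries (columns, by group and replicate), ordered by role. The Cxcl1, Cxcl9 and Cxcl10 rows are brightest in the 3 treated FBXL5ΔDC livers and in treated control replicate 3, and the Cxcl12 row is darkest in the same 4 livers.

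In FBXL5ΔDC livers more members were called higher than lower 6 h after acetaminophen. Calls in control livers were few and near the share of all tested genes. If the 0 h mice were not fasted, the drug and the fast cannot be told apart. In control livers 4 of the 39 tested members were higher at 6 h (Cxcl2, Cxcl10, Ccl6 and Ccl9), where 6.36% of all tested genes were called higher. None of the 4 was called in a fit of the 2 control groups alone. DESeq2 called these 4 and also Cxcl1, Cxcl14, Ccl7, Cxcr2 and Ackr2 higher there. No member was called lower there by edgeR, where 4.2% of tested genes were lower; at an unadjusted p under 0.05 there were 2, and DESeq2 called 1 (Ccl27a). In FBXL5ΔDC livers 11 members were higher (Cxcl1, Cxcl2, Cxcl9, Cxcl10, Cxcl11, Cxcl14, Ccl2, Ccl6, Ccl7, Ackr1 and Ackr2), where 15% of all tested genes were higher, and 2 were lower (Cxcl12 and Ccl27a), where 15.1% were lower. DESeq2 called 14 higher there, Ccl9, Ccl11 and Cxcr2 among them, and 3 lower, Ackr4 being the third. Over the 39 tested members the median log2 change was 1.02 in control and 0.77 in FBXL5ΔDC livers, beside 0.03 and 0.02 over all tested genes. With members that had a group at 0 in every library set at the detection floor, the medians were 0.72 and 0.55. Members under the floor with some counts, such as Ccl2 in untreated FBXL5ΔDC livers, kept their fitted change. Some members, such as Cxcl5 and Cxcr2, passed the filter only through treated livers, so these medians are descriptive and no test of a shift.

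Between genotypes, 2 members were called higher in FBXL5ΔDC livers at 6 h, Cxcl10 and Cxcl11, where 1.35% of all tested genes were higher. No member was called lower, where 4.51% of tested genes were lower; 3 members had an unadjusted p under 0.05 in that direction and DESeq2 called 0. At 0 h edgeR called no member in either direction and no gene at all (0%), with 1 member (Ccl2, lower) at an unadjusted p under 0.05 and 0 called by DESeq2. The difference between the responses of the genotypes (the interaction) gave 0 members in either direction in edgeR, where 0.0341% of tested genes were higher and 0.256% lower. At an unadjusted p under 0.05 there were 5 members with a larger and 2 with a smaller log2 response in FBXL5ΔDC livers, and DESeq2 called 3 with a larger one, Cxcl9, Cxcl10 and Cxcl11. The comparisons share groups, so their values are set side by side and not correlated.

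**Figure D2:**
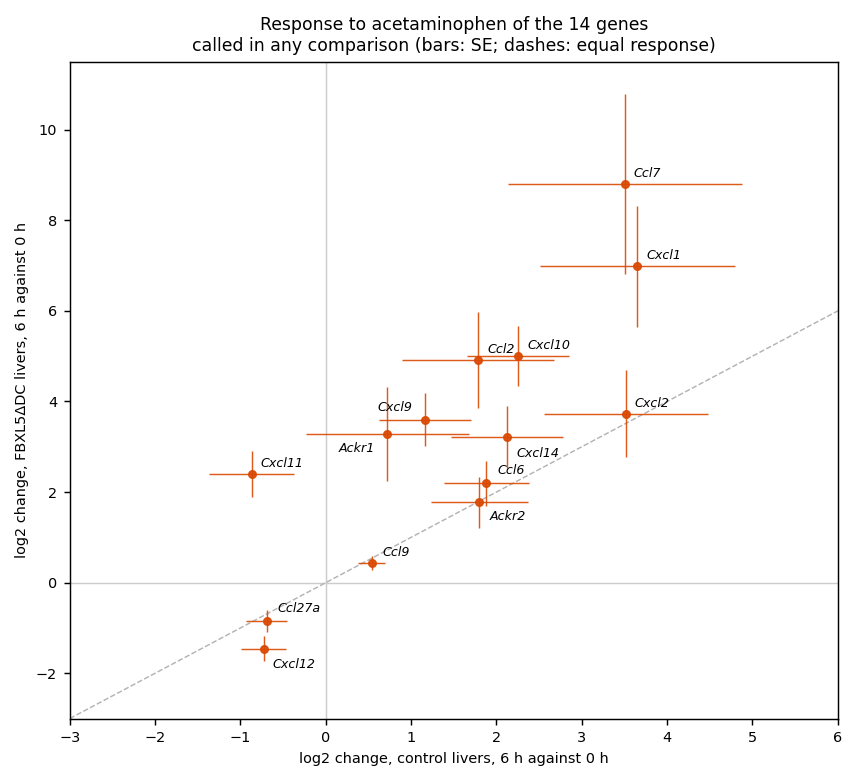
Fitted log2 change from 0 h to 6 h in control livers (x axis) and FBXL5ΔDC livers (y axis) for the 14 members called in any comparison, with bars of 1 SE and a dashed line of equal response. Cxcl1, Cxcl9, Cxcl10, Cxcl11 and Ccl2 lie well above the line and, with all libraries in the fit, Ccl6, Ccl9, Ackr2 and Cxcl2 lie close to it. The height of Ccl7 rests on an untreated group at 0 in every library, and that of Ccl2 on an untreated group under the detection floor. Neither height is a measure of the fold.

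The neutrophil-attracting ligand Cxcl1 (ENSMUSG00000029380.11, chromosome 5 from 90891241 to 90893115) had the highest mean level per kilobase of all members in treated FBXL5ΔDC livers. It stood at 0.212, 1.34 and 1.01 CPM in untreated control livers (replicates 1, 2 and 3, in this order throughout) and at 0.400, 0.764 and 0.238 CPM in untreated FBXL5ΔDC livers. At 6 h it was at 1.78, 1.77 and 28.7 CPM in control and 48.9, 73.2 and 56.0 CPM in FBXL5ΔDC livers. Every treated FBXL5ΔDC liver was above every other library, and treated control replicate 3 stood between them and the rest. The rise was called in FBXL5ΔDC livers (log2 6.98, SE 1.33, adjusted p = 0.00402) and missed the threshold in control livers (log2 3.65, SE 1.14, adjusted p = 0.0745), where DESeq2 called it (adjusted p = 0.00614). Without treated control replicate 3 the control change was 1.06 (adjusted p = 0.358). The genotype difference at 6 h was not called (log2 2.47, SE 1.05, adjusted p = 0.197), and without treated control replicate 3 it was (log2 5.06, adjusted p = 0.000812).

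Cxcl2 (chromosome 5 from 90903871 to 90905938), the second major CXCR2 ligand of the mouse, rose in both genotypes. It was at 0.186, 0.0682 and 0.107 CPM and 0.357, 0.0441 and 0.0447 CPM in untreated control and FBXL5ΔDC livers, and at 0.452, 0.482 and 3.27 CPM and 1.27, 2.66 and 2.07 CPM after treatment. Both untreated groups were under the detection floor, and the treated means were 8.67 times the floor of the untreated group in control and 11.4 times in FBXL5ΔDC livers. The highest single library was treated control replicate 3. The rise was called in both genotypes (adjusted p = 0.0363 and 0.0112), and the genotype difference at 6 h was not called (log2 0.52, SE 0.84, adjusted p = 0.771). Without treated control replicate 3 that difference was 2.09 (SE 0.83, adjusted p = 0.0888). Without FBXL5ΔDC replicate 1 at 0 h, the library with the highest untreated value, its fitted log2 change in FBXL5ΔDC livers went from 3.73 to 5.44. Cxcl5, an epithelial CXCR2 ligand, had counts only in 4 treated libraries and at most 0.268 CPM, Cxcl3 reached at most 0.119 CPM, and Cxcl15, the lung-associated lungkine, was at 0. The 3 NF-κB windows of Cxcl1, Cxcl2 and Cxcl3 printed above therefore stand before genes with means of 59.4 ± 12.5, 2.0 ± 0.694 and 0.0561 ± 0.0599 CPM in treated FBXL5ΔDC livers, and the match of Ccl20 before a gene at 0 throughout.

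Of the 10 neutrophil markers, 6 could be tested. In control livers 1 was called higher (S100a9), where 6.36% of all tested genes were higher. In FBXL5ΔDC livers 4 were called higher (S100a8, S100a9, Retnlg and Mmp8), where 15% of all tested genes were higher. The summed level of the 10 markers was 1.2 to 1.75 CPM in untreated control, 1.36 to 2.28 in untreated FBXL5ΔDC, 3.55 to 3.82 in treated control and 3.79 to 10.1 CPM in treated FBXL5ΔDC livers. Ly6g, which defines neutrophils, was at 0 in every library except treated FBXL5ΔDC replicate 2, at 0.180 CPM. Treated control replicate 3 was not set apart in this sum (3.60 CPM), although it had the highest Cxcl1 of its group. The part of neutrophil RNA in the ligand values was not tested.

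The members called between genotypes at 6 h were both interferon-induced CXCR3 ligands. Cxcl10 (ENSMUSG00000034855.13, chromosome 5 from 92346638 to 92348889, minus strand) was at 2.04, 2.36 and 1.68 CPM in untreated control and 2.54, 1.84 and 2.01 CPM in untreated FBXL5ΔDC livers. At 6 h it was at 2.77, 5.23 and 21.1 CPM in control and 75.6, 73.3 and 55.8 CPM in FBXL5ΔDC livers. The lowest treated FBXL5ΔDC liver was above the highest control liver, again replicate 3. Cxcl10 rose in control livers (log2 2.25, SE 0.60, adjusted p = 0.0391) and in FBXL5ΔDC livers (log2 5.0, SE 0.67, adjusted p = 0.000558), and it was higher in FBXL5ΔDC than in control livers at 6 h (log2 2.82, SE 0.60, adjusted p = 0.0253). That call was lost with no filter on low counts (adjusted p = 0.058), in a fit of the 2 groups alone (0.159), and without treated control replicate 2 (adjusted p = 0.10), treated FBXL5ΔDC replicate 1 (0.0665) or replicate 2 (0.0775), and without treated control replicate 3 the difference was larger (log2 4.09, adjusted p = 9.85e-07). Art3 overlaps Cxcl10 on the other strand and rose in FBXL5ΔDC livers too (log2 2.53, adjusted p = 0.0119), but to a level of 1.56 ± 0.480 CPM.

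Cxcl11 (ENSMUSG00000060183.6, chromosome 5 from 92359544 to 92365485, minus strand) had the genotype difference with the smallest adjusted p among the members. It stood at 0.690, 0.491 and 0.886 CPM and 0.50, 0.823 and 0.283 CPM in untreated control and FBXL5ΔDC livers, and at 0.555, 0.185 and 0.391 CPM and 3.59, 2.28 and 2.61 CPM in treated ones. Treated control livers were all within or below the untreated range, replicate 3 included, and treated FBXL5ΔDC livers all above it. It rose in FBXL5ΔDC livers (log2 2.40, SE 0.51, adjusted p = 0.0039), did not pass the test in control livers (log2 −0.87, SE 0.50, adjusted p = 0.317) and differed at 6 h (log2 2.90, SE 0.52, adjusted p = 0.0108). This call held with each library of the groups compared left out in turn but not in a fit of the 2 groups alone (adjusted p = 0.105), and without treated control replicate 3 the log2 difference was 2.93. The interaction was 3.27 (SE 0.71, adjusted p = 0.0791). GENCODE lists Cxcl11 as a polymorphic pseudogene, a gene whose copy in the reference strain is disabled while other strains have an intact one, and the strain of these mice is not in the labels. Gm2673, which overlaps it on the other strand, was at 0.0102 ± 0.0177 CPM in treated FBXL5ΔDC livers.

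Cxcl9 (chromosome 5 from 92321347 to 92328079, minus strand), the ligand most tied to interferon gamma, followed Cxcl10. It was at 2.44, 3.79 and 3.05 CPM and 1.66, 2.40 and 2.89 CPM at 0 h, and at 1.69, 5.59 and 13.5 CPM in treated control and 26.8, 30.8 and 26.5 CPM in treated FBXL5ΔDC livers, which did not overlap with any other group. It rose in FBXL5ΔDC livers (log2 3.60, SE 0.58, adjusted p = 0.00121), and its genotype difference at 6 h just missed the threshold (log2 2.02, SE 0.54, adjusted p = 0.0533). It was called by DESeq2 (adjusted p = 0.00164), with upper quartile scaling (0.0472), with the replicate number as a block (0.0321), with counts divided by 4 (0.0363) and without treated control replicate 3 (log2 2.94, adjusted p = 0.00063). Summed over the 3 ligands, levels were 5.02, 11.0 and 35 CPM in treated control and 106, 106 and 84.8 CPM in treated FBXL5ΔDC livers, against 4.70 to 6.65 CPM in the 6 untreated livers.

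Among the other CXC ligands, Cxcl12 fell. This homeostatic ligand of CXCR4 (ENSMUSG00000061353.11, chromosome 6 from 117168535 to 117181367) was at 275, 208 and 209.6 CPM in untreated control and 245, 241 and 229 CPM in untreated FBXL5ΔDC livers. At 6 h it was at 166, 182 and 69.9 CPM in control and 90.4, 89.9 and 80.2 CPM in FBXL5ΔDC livers. The treated FBXL5ΔDC livers and treated control replicate 3 lay together far below the untreated range, and treated control replicates 1 and 2 just below it. The fall was called in FBXL5ΔDC livers (log2 −1.46, SE 0.27, adjusted p = 0.00201) but not in control livers (log2 −0.73, SE 0.27, adjusted p = 0.106, and −0.41 with an adjusted p of 0.0799 without treated control replicate 3). The genotype difference at 6 h was not called (log2 −0.68, adjusted p = 0.149), and without treated control replicate 3 it was (log2 −1.0, adjusted p = 0.000112). Markers of sinusoidal endothelium, a source of Cxcl12, moved the other way: 7 of 8 rose in FBXL5ΔDC livers, where 15% of all tested genes were called higher. The summed level of these markers there was 140 to 182 CPM at 0 h and 305 to 361 CPM at 6 h. In control livers it was 136 to 170 and 147 to 261 CPM, highest in treated control replicate 3. The part of this endothelium in the Cxcl12 values was not tested.

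Cxcl14, a ligand of epithelia and fibroblasts whose receptor is debated, was at 0.424, 0.341 and 0.698 CPM and 0.157, 0.176 and 0.745 CPM at 0 h. At 6 h it was at 1.52, 0.828 and 4.08 CPM in control and 3.41, 3.49 and 3.14 CPM in FBXL5ΔDC livers, so that treated control replicate 3 was the highest library. Its rise was called in FBXL5ΔDC livers (log2 3.22, SE 0.69, adjusted p = 0.00403) and missed the threshold in control livers (log2 2.13, SE 0.66, adjusted p = 0.0566), where DESeq2 called it (adjusted p = 0.0109). Without treated control replicate 3 the control change was 1.26 (adjusted p = 0.229), and the difference at 6 h went from 0.65 to 1.51 (adjusted p = 0.0976). Without FBXL5ΔDC replicate 3 at 0 h, the highest of its group, the fitted log2 change in FBXL5ΔDC livers was 4.31. Cxcl16, the membrane-bound ligand of CXCR6, was at 2.56, 3.64 and 3.45 CPM and 4.23, 2.69 and 3.98 CPM at 0 h, and at 5.25, 4.77 and 3.79 CPM and 3.55, 2.79 and 2.13 CPM at 6 h. Its treated groups did not overlap, being lower in FBXL5ΔDC livers, yet the difference was not called (log2 −0.71, SE 0.28, adjusted p = 0.151), and it shares exon sequence with Zmynd15 on the other strand. Cxcl13, the B cell ligand of CXCR5, was at 1.53, 2.33 and 1.88 CPM and 1.90, 1.23 and 2.23 CPM at 0 h and at 1.96, 2.24 and 1.90 CPM and 3.73, 2.43 and 1.64 CPM at 6 h, with all 4 groups overlapping and no call. Cxcl17 reached at most 0.0409 CPM.

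**Figure D3:**
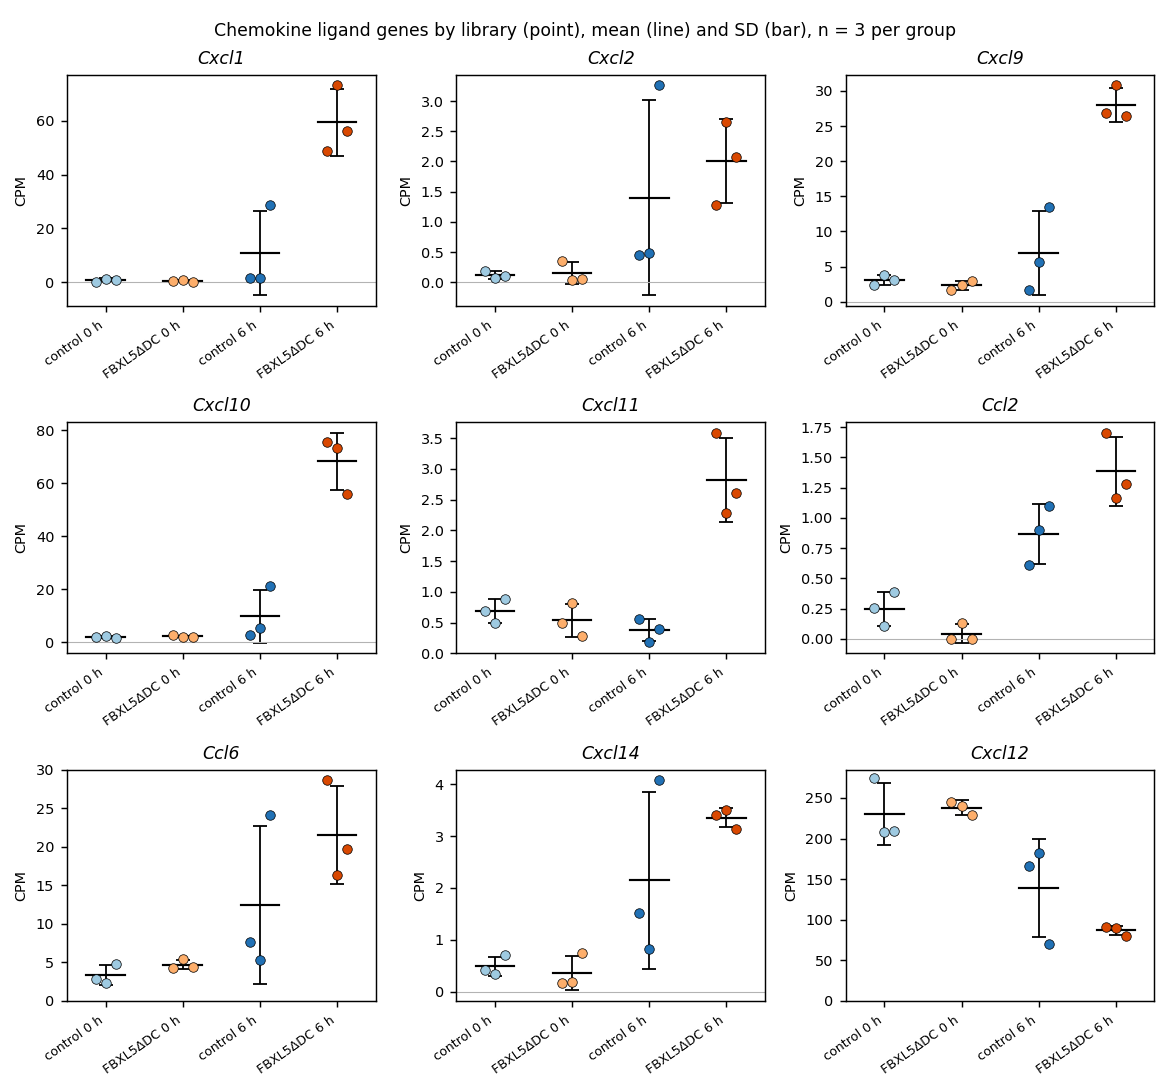
CPM of 9 ligand genes in each library (points), with the mean (line) and SD (bar) of each group, n = 3. Cxcl1, Cxcl9, Cxcl10, Cxcl11 and, narrowly, Ccl2 separate treated FBXL5ΔDC livers from all others. Cxcl2, Ccl6 and Cxcl14 have 1 treated control liver within or above the treated FBXL5ΔDC range, and Cxcl12 is lowest in treated control replicate 3 and the treated FBXL5ΔDC livers.

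Of 9 inflammatory CC ligands, 7 could be tested, 2 rose in control livers and 3 in FBXL5ΔDC livers. Of all tested genes, 6.36% and 15% were called higher there. Ccl6 (chromosome 11 from 83587882 to 83593087, minus strand), a macrophage ligand of CCR1, was at 2.85, 2.36 and 4.85 CPM in untreated control and 4.33, 5.39 and 4.42 CPM in untreated FBXL5ΔDC livers, and at 7.66, 5.34 and 24.2 CPM and 28.7, 16.3 and 19.7 CPM after treatment. Treated control replicate 3 was within the treated FBXL5ΔDC range. The rise was called in control livers (log2 1.88, SE 0.50, adjusted p = 0.0348) and in FBXL5ΔDC livers (log2 2.19, SE 0.50, adjusted p = 0.0069), and the genotype difference at 6 h was not (log2 0.80, SE 0.48, adjusted p = 0.359). Without treated control replicate 3 that difference was called (log2 1.73, adjusted p = 0.00155). Ccl9, another CCR1 ligand and the most abundant CC ligand, was at 23.4, 30.9 and 26.8 CPM and 29.3, 26.3 and 30.8 CPM at 0 h, and at 41.6, 44.4 and 31.6 CPM and 34.6, 44.4 and 38.3 CPM at 6 h. Every treated liver was above every untreated one of its genotype, by a modest log2 0.54 in control (SE 0.16, adjusted p = 0.0485) and 0.44 in FBXL5ΔDC livers (SE 0.16, adjusted p = 0.053), the latter called by DESeq2 (0.0393) but not by edgeR. The genotypes did not differ detectably at 6 h (log2 −0.0047, SE 0.16).

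The 4 calls in control livers rested on few libraries. Each of Cxcl2, Cxcl10, Ccl6 and Ccl9 lost its call when any single untreated control library was left out (adjusted p from 0.0514 to 0.173), and Ccl9 also without treated control replicate 1 (0.108) or 2 (0.127). Ccl9 was not called with RLE size factors either (0.0502), nor with upper quartile scaling (0.0902), no filter on low counts (0.0641) or the replicate block (0.0629), so that its call was lost under 10 of 14 alternatives. Without treated control replicate 3 the log2 change was 1.94 for Cxcl2 (adjusted p = 0.167), 0.98 for Cxcl10 (0.0244), 0.95 for Ccl6 (0.0687) and 0.67 for Ccl9 (0.00911), so that Cxcl10 and Ccl9 kept a call. In a fit of the 2 control groups alone none of the 4 was called (adjusted p from 0.0984 to 0.142).

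Ccl2, the main ligand of CCR2 on monocytes (chromosome 11 from 82035571 to 82037453), was at 0.252, 0.109 and 0.389 CPM in untreated control and 0, 0.132 and 0 CPM in untreated FBXL5ΔDC livers. It was at 0.606, 0.902 and 1.10 CPM in treated control and 1.70, 1.16 and 1.28 CPM in treated FBXL5ΔDC livers, and treated livers of both genotypes were above all untreated ones. The untreated FBXL5ΔDC group was under the detection floor, and the treated mean was 7.88 times that floor (adjusted p = 0.00417). In control livers the rise was not called (log2 1.79, SE 0.89, adjusted p = 0.239), nor was the genotype difference at 6 h (log2 0.67, SE 0.85, adjusted p = 0.698). Its neighbour Ccl7, a further CCR2 ligand, was at 0 in all 3 untreated FBXL5ΔDC livers and at 1.49, 0.164 and 0.715 CPM after treatment, at least 4.50-fold higher against the floor of the group (adjusted p = 0.00713). In control livers it was at 0, 0 and 0.107 CPM before and 0.335, 0.593 and 0.346 CPM after treatment. The untreated control group was under the floor, and the treated mean was 2.63 times that floor. This rise was not called by edgeR, while DESeq2 called it (adjusted p = 0.0438). The fitted log2 change of Ccl2 in FBXL5ΔDC livers went from 4.92 to 9.61 without FBXL5ΔDC replicate 2 at 0 h, the single untreated library of that group with counts.

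Other members of this group stayed low. Ccl5, a T cell and NK cell product, ranged from 0.0602 to 0.783 CPM over the 12 libraries, Ccl4 from 0 to 0.377 CPM and Ccl3 from 0 to 0.286 CPM, and none was called. Ccl8 and Ccl12, at most 0.0492 and 0.0602 CPM, could not be tested. Among ligands of eosinophils and type 2 cells, Ccl24 ranged from 0.485 to 1.48 CPM and Ccl22 from 0 to 0.591 CPM without a call. Ccl11 (eotaxin) was at 0 in the 9 other libraries and at 0.537, 0.164 and 0.134 CPM in treated FBXL5ΔDC livers. Their mean was 1.73 times the floor of treated control livers. It rested mostly on replicate 1, with 35 counts beside 10 and 9. Ccl11 was too low to pass the edgeR filter. DESeq2, which filters otherwise, called it higher in treated than in untreated FBXL5ΔDC livers. Ccl17 reached 0.0441 CPM. Markers of mast cells, basophils and eosinophils summed to at most 0.313 CPM in any library, and 1 of the 6 was at 0 throughout.

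Of the homeostatic and mucosal CC ligands, 2 were well expressed. Ccl27a, a skin ligand of CCR10, was at 6.10, 5.30 and 4.88 CPM and 4.87, 3.82 and 5.44 CPM at 0 h, and at 2.54, 3.61 and 3.91 CPM and 3.03, 2.48 and 2.31 CPM at 6 h. Treated livers of each genotype were below all untreated ones of the same genotype, and the fall was called in FBXL5ΔDC livers (log2 −0.85, SE 0.24, adjusted p = 0.0189). It was lost without FBXL5ΔDC replicate 1 or 3 at 0 h or replicate 2 or 3 at 6 h (adjusted p from 0.0578 to 0.0813). Ccl27a has a near-identical copy, Ccl27b (at most 0.238 CPM), and overlaps Il11ra1 on the other strand, so its count is uncertain. Ccl25, the thymus and gut ligand of CCR9, was at 4.43, 4.90 and 3.65 CPM and 1.99, 4.26 and 6.15 CPM at 0 h and at 3.82, 3.41 and 3.57 CPM and 4.71, 4.68 and 4.69 CPM at 6 h, with no call, and it overlaps Elavl1 on the other strand. The CCR7 ligands Ccl21a, Ccl21b and Ccl21d, near-identical copies whose reads cannot be well assigned, reached 0.705, 0.394 and 0.312 CPM, Ccl19 reached 0.196 CPM and Ccl28 0.338 CPM. The membrane-bound ligand Cx3cl1 was at 0.106, 0.191 and 0.215 CPM in untreated and 0.310, 0.433 and 0.361 CPM in treated control, and at 0, 0.50 and 0.194 CPM in untreated and 0.998, 0.574 and 0.671 CPM in treated FBXL5ΔDC livers, without a call. Xcl1 reached 0.0618 CPM.

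The make-up of the ligand signal changed with these genes. Summed per kilobase over all 39 ligands, Cxcl12 held 57.0 ± 6.18% in untreated control and 56.7 ± 2.55% in untreated FBXL5ΔDC livers, and 8.75 ± 0.308% in treated FBXL5ΔDC livers. In treated control livers its share ran from 11.6% in replicate 3 to 40.8%. Cxcl1 and Cxcl10 held 0.944 ± 0.652% and 1.83 ± 0.305% in untreated control livers and 26.0 ± 4.51% and 24.8 ± 2.26% in treated FBXL5ΔDC livers. In those livers Cxcl1 (31.7 CPM per kilobase, range 26.1 to 39.1) and Cxcl10 (30.3, 24.8 to 33.5) led with overlapping ranges. Then came Ccl9 (12.8), Ccl6 (12) and Cxcl12 (10.6). Of these, Ccl6 overlapped both others in range while Ccl9 (from 11.3) and Cxcl12 (to 11.1) did not overlap. Without division by length the order there was Cxcl12 (86.8 ± 5.71 CPM), Cxcl10 (68.2 ± 10.8) and Cxcl1 (59.4 ± 12.5). The shares and the order per kilobase thus depend on the merged exon length. It was 8176 bases for Cxcl12, 2252 for Cxcl10 and 1875 for Cxcl1.

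**Figure D4:**
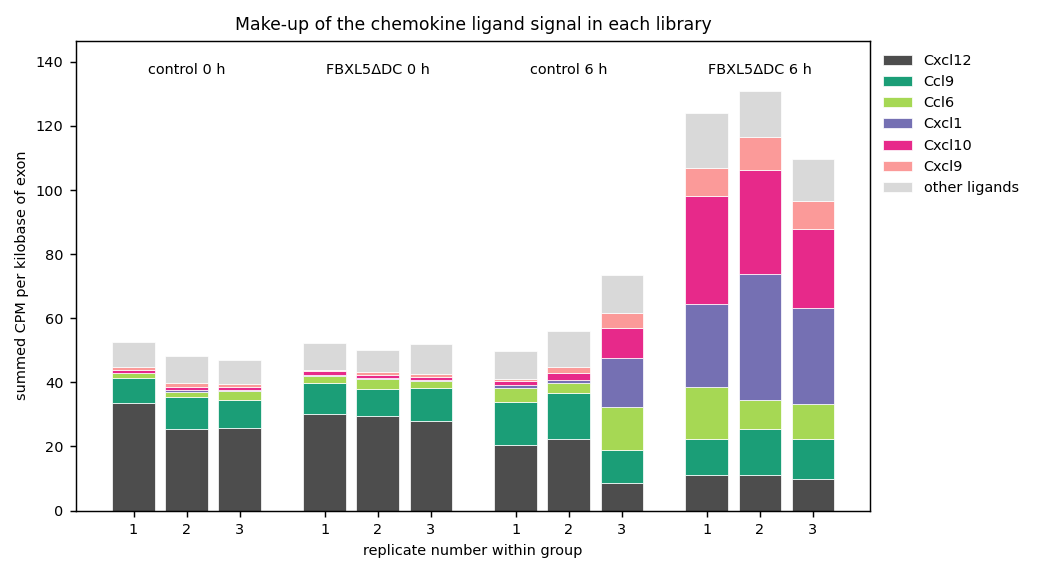
Summed CPM per kilobase of exon of the 39 ligand genes in each library, stacked by gene. Cxcl12 fills most of the bar in the untreated livers, while Cxcl1 and Cxcl10 are its largest segments in the 3 treated FBXL5ΔDC livers, and treated control replicate 3 lies between the 2 patterns.

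Signalling receptors gave no call by edgeR in any of the 5 comparisons. Of the 16, 10 could be tested, and DESeq2 called Cxcr2 higher in both genotypes after treatment. The monocyte receptor Ccr2 was higher in each treated control liver (0.619 to 1.77 CPM) than in any treated FBXL5ΔDC liver (0.149 to 0.427 CPM), without a call (log2 −2.01, SE 0.87, adjusted p = 0.187). The neutrophil receptor Cxcr2 was at 0 in all untreated control livers, reached 0.0857 CPM in 1 untreated FBXL5ΔDC liver, and was at 0 to 0.346 CPM in treated control and 0.358 to 1.0 CPM in treated FBXL5ΔDC livers. Its change was not called in control (adjusted p = 0.0791) or FBXL5ΔDC livers (adjusted p = 0.0801). Cxcr3, the receptor of Cxcl9, Cxcl10 and Cxcl11, ranged from 0 to 0.529 CPM and was at 0 to 0.119 CPM in treated FBXL5ΔDC livers, a range that is under the floor and overlaps both control groups. It was not called against untreated FBXL5ΔDC livers (adjusted p = 0.171). T cell markers and NK cell markers, 8 in each list, gave no call in any comparison, and summed to at most 2.68 and 2.51 CPM in any library. Cxcr4, the receptor of Cxcl12, ranged from 0.109 to 1.37 CPM without a call, with treated FBXL5ΔDC livers (from 0.755) above untreated control livers (to 0.577) and the other groups overlapping both. Ccr7 reached 0.737 CPM, Ccr9 0.626 CPM, Cxcr5 0.60 CPM, Cx3cr1 0.536 CPM and Cxcr6 0.436 CPM, and Ccr1, Ccr3, Ccr6, Ccr10 and Cxcr1 were at most 0.23 CPM.

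Of the 4 atypical receptors, 2 rose in FBXL5ΔDC livers by edgeR, where 15% of all tested genes were called higher. In control livers edgeR called 0, with 2 at an unadjusted p under 0.05, and DESeq2 called Ackr2 (adjusted p = 0.0112). Ackr1, which carries chemokines across venular endothelium, was at 0.265, 0.30 and 0.201 CPM and 0.214, 0.147 and 0 CPM at 0 h, and at 0.103, 0.668 and 0.497 CPM in treated control and 1.93, 1.16 and 0.477 CPM in treated FBXL5ΔDC livers. The untreated FBXL5ΔDC group was under the floor and the treated mean 6.79 times that floor (adjusted p = 0.0297). The call was lost without FBXL5ΔDC replicate 2 or 3 at 0 h or replicate 1 or 2 at 6 h (adjusted p from 0.0504 to 0.11). Ackr1 shares exon sequence with Cadm3 on the same strand, and Cadm3 was at 1.46 ± 0.593 CPM in untreated and 3.61 ± 0.983 CPM in treated FBXL5ΔDC livers (log2 1.31, adjusted p = 0.0502), so the 2 genes cannot be told apart with certainty.

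Ackr2, the scavenger of inflammatory CC ligands, was at 2.53, 1.19 and 2.69 CPM and 2.07, 1.82 and 1.94 CPM at 0 h, and at 5.03, 2.52 and 14.8 CPM in treated control and 7.60, 8.84 and 3.49 CPM in treated FBXL5ΔDC livers. Treated control replicate 3 was the highest of all. The log2 changes were close in control (1.80, SE 0.57, adjusted p = 0.0638) and FBXL5ΔDC livers (1.77, SE 0.57, adjusted p = 0.0336), with a call in the latter that was lost without any 1 of the untreated FBXL5ΔDC livers or treated FBXL5ΔDC replicate 1 or 2 (adjusted p from 0.086 to 0.108), or with no filter on low counts (0.0562). Without treated control replicate 3 the control change was 0.82 (adjusted p = 0.293), and the genotype difference at 6 h turned from −0.16 to 0.81, neither called. Ackr3, which removes Cxcl12, ranged from 0.0572 to 0.715 CPM at 0 h and from 0.297 to 2.48 CPM at 6 h without a call. Ackr4, a scavenger of Ccl19, Ccl21 and Ccl25, was at 0.716 to 1.43 CPM in untreated control and 0 to 0.402 CPM in treated FBXL5ΔDC livers. It was not called by edgeR (log2 −2.11 in FBXL5ΔDC livers, SE 0.94, adjusted p = 0.11), while DESeq2 called it lower there (adjusted p = 0.0459). Ackr4 shares exon sequence with Acad11 on the other strand, so its count is uncertain.

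**Figure D5:**
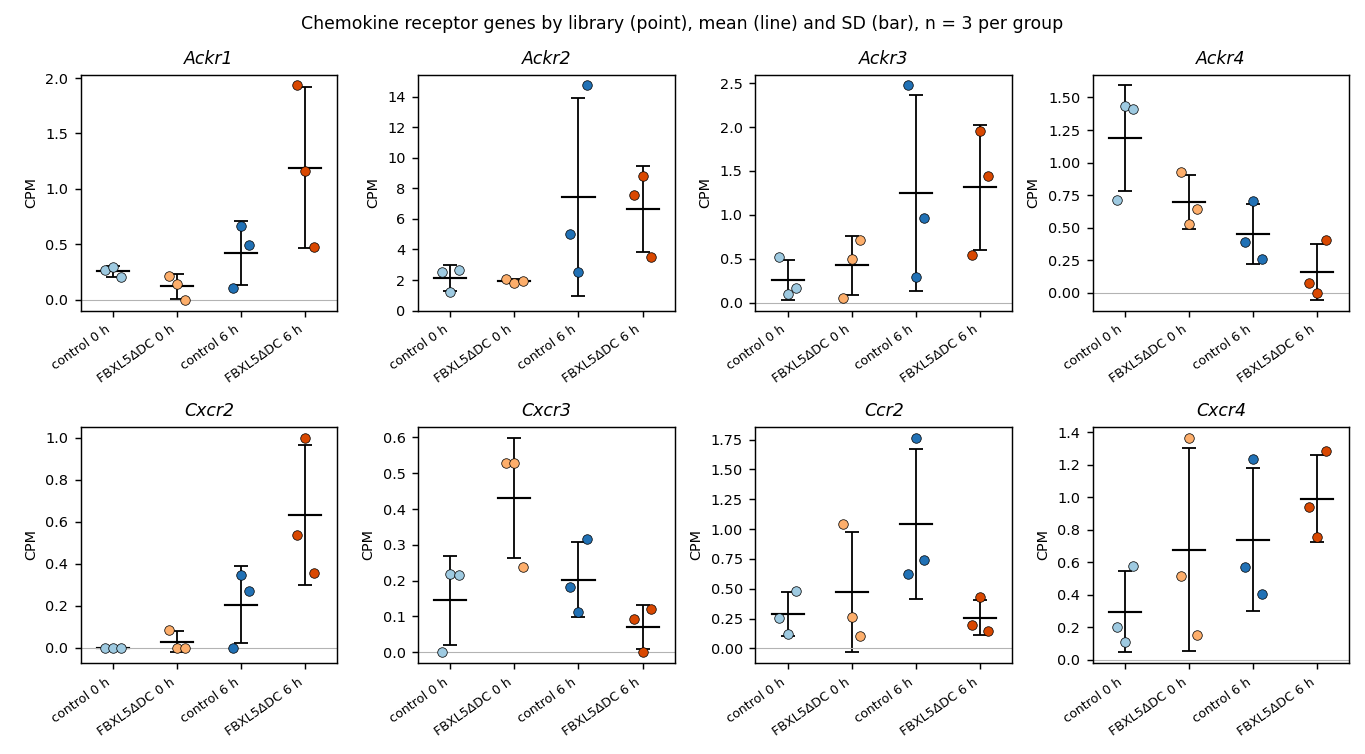
CPM of the 4 atypical receptor genes and 4 signalling receptor genes in each library (points), with the mean (line) and SD (bar) of each group, n = 3. The group means of Ackr1 and Cxcr2 are highest in treated FBXL5ΔDC livers, Ackr2 is highest in treated control replicate 3, and Ccr2 is higher in all treated control livers than in the treated FBXL5ΔDC ones.

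Treated control replicate 3 was the highest of its group in Cxcl1, Cxcl2, Cxcl9, Cxcl10, Cxcl14, Ccl6 and Ackr2 and the lowest in Cxcl12, and the comparisons at 6 h depend on it. Without it, 5 members were higher in FBXL5ΔDC than in control livers (Cxcl1, Cxcl9, Cxcl10, Cxcl11 and Ccl6) and 1 was lower (Cxcl12), where 10.1% and 12.9% of 18464 tested genes were called (1873 higher and 2376 lower). The interaction then called 4 with a larger response in FBXL5ΔDC livers, Cxcl1 (log2 5.92), Cxcl9 (3.36), Cxcl10 (4.02) and Cxcl11 (3.29), and Cxcl12 with a deeper fall (−1.05), where 5.97% and 7.74% of tested genes were called in these directions. No label gives a reason to leave this library out, and its dose is not in the labels.

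Of 32 listed cytokines and NF-κB and interferon factors that induce chemokines, 28 were tested. In control livers 8 were higher and 1 lower, where 6.36% and 4.2% of all tested genes were called, and in FBXL5ΔDC livers 15 were higher and 4 lower, where 15% and 15.1% were called. At 6 h 2 were higher and 2 lower in FBXL5ΔDC than in control livers, where 1.35% and 4.51% were called. Csf1, the growth factor of macrophages, had the smallest adjusted p in both responses (log2 1.85 in control and 2.09 in FBXL5ΔDC livers, adjusted p = 0.000128 and 2.22e-05). Irf1, a transcription factor that drives interferon-induced genes, was at 16.5, 14.3 and 14.8 CPM in untreated control and 15.1, 11.8 and 11.0 CPM in untreated FBXL5ΔDC livers. At 6 h it was at 13.5, 11.8 and 11.0 CPM in control and 24.6, 21.8 and 20.3 CPM in FBXL5ΔDC livers, higher in every one of the latter (log2 0.88, SE 0.16, adjusted p = 0.0108). Treated control replicate 3 was the lowest of its group for Irf1, as it was within the low range for Cxcl11, whereas it was the highest for Cxcl9 and Cxcl10. Irf7 was also higher at 6 h (log2 0.70, adjusted p = 0.0344), and Irf3 (−0.85, 0.0241) and Atf3 (−3.06, 0.0353) were lower. Irf7, Irf3 and Atf3 were named after their values were seen. Ifng, the gene of interferon gamma, was at 0 in every library.

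Of 33 genes of chemokine receptor signalling with a row in the table, all were tested. In control livers 4 were higher, where 6.36% of all tested genes were higher. In FBXL5ΔDC livers 7 were higher and 2 lower, where 15% and 15.1% were called. At 6 h 1 was higher in FBXL5ΔDC than in control livers, where 1.35% were higher. That gene was Rgs2, a brake on G protein signalling (log2 1.59, SE 0.40, adjusted p = 0.0385), which was also called in treated FBXL5ΔDC livers (log2 2.14, adjusted p = 0.00229). Gnai3, a G protein subunit, led in control livers (log2 0.45, adjusted p = 0.0165). Of 9 chemokine-system genes whose names the rule does not match, 1 was called in any comparison: Pf4, the platelet chemokine, rose in FBXL5ΔDC livers (log2 3.20, SE 0.94, adjusted p = 0.0216), with 2 of 5 platelet markers, Pf4 among them, higher there. Kupffer cell markers, a source of many ligands, were higher for 1 of 10 genes in control and 4 of 10 in FBXL5ΔDC livers, with summed levels of 136 to 172, 166 to 219, 182 to 224 and 214 to 367 CPM in untreated control, untreated FBXL5ΔDC, treated control and treated FBXL5ΔDC livers. Bile duct markers rose in 4 of 6 genes in FBXL5ΔDC livers and stellate and fibroblast markers in 3 of 7, and B cell markers in none of 6. Monocyte markers rose in 2 of 9 genes in each genotype. Beside these marker counts, 6.36% of all tested genes were called higher in control and 15% in FBXL5ΔDC livers. Between genotypes at 6 h, 1 of 10 Kupffer cell, 1 of 8 sinusoidal endothelium and 0 of 9 monocyte markers were higher in FBXL5ΔDC livers. There 1 of 8 hepatocyte markers was lower. Of all tested genes, 1.35% were higher and 4.51% lower in that comparison. The part of these cell types in the member values was not tested.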

How the data were processed

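Whole-liver RNA from 12 mice (4 groups of 3) was sequenced. Reads were processed with Trim Galore 0.6.6 and HISAT2 2.2.1 against mm10, per the submitters' processing notes. The authors deposited 1 table of estimated counts per gene, already whole numbers. Which program counted them, and whether by strand, is not given in the sources used here.

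Rounding to whole numbers changed no value, and the counts were fitted with edgeR 4.0.16 (R 4.3.3): filterByExpr, TMM scaling, and a robust quasi-likelihood test over all 12 libraries, with 5 contrasts and Benjamini-Hochberg adjustment over 17585 genes. A gene was called at an adjusted p under 0.05. Exon lengths and overlaps came from GENCODE, in which all 59 members matched by identifier without version. Promoters came from RefSeq (GRCm38.p6). DESeq2 1.42.0, other scalings and filters, a replicate block and left-out libraries were alternatives.

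The members and lists were chosen with earlier results of these data known. All 12 values are given for members called in any contrast or among the 10 highest in mean CPM in any group, and other members by range; 1 member is not reported here. From each pathway list, genes with the smallest adjusted p were named. In data simulated for the genotype comparison at 6 h over 17585 genes, 6% of 2-fold, 72% of 4-fold and 100% of 8-fold changes were recovered. The changes, 50 genes for each fold, were placed only in genes far above the detection floor of 12 counts. All genes had the same fixed spread. Many members had fewer counts than those genes, and recovery at such levels was not tested. Total counts were 67173096 to 72512319 per library.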

Additional observations from a re-analysis of the deposited data

How the results depend on the processing

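None of the 19 calls of named members changed direction under the alternatives run for them. Among uncalled members, the genotype difference at 6 h changed sign without treated control replicate 3 for Ackr2 (0.81), Ccl5 (−0.12), Cxcr6 (0.14), Ackr3 (−0.08), Cxcl5 (0.13) and Ccr9 (−0.05). In control livers the 4 members called higher became 1 with no filter on low counts, 9 with DESeq2, 0 in a fit of the groups compared only, 2 with a replicate block, 3 with RLE or upper quartile factors, and 0 to 6 with 1 library left out; the 0 called lower became 1 with DESeq2 and 0 to 1 with 1 library left out. In FBXL5ΔDC livers the 2 called lower became 3 with DESeq2, which called 14 higher, and 1 to 2 with 1 library left out, while Cxcl1, Cxcl2, Cxcl9, Cxcl10, Cxcl11, Cxcl12, Cxcl14, Ccl2, Ccl6 and Ccl7 held under every alternative that gave a value. At 6 h the 2 members higher in FBXL5ΔDC livers became 1 with no filter, 0 in a fit of the groups compared only, 3 with DESeq2, upper quartile factors or counts divided by 4, and 1 to 5 with 1 library left out, and the 0 lower became 0 to 1. For the interaction, which allows no fit of fewer groups, the 0 with a larger response became 3 with DESeq2 and 0 to 4 with 1 library left out, and the 0 with a smaller one 0 to 1. Members at 0.2 CPM or more (37) became 21 at a minimum of 1 CPM. The replicate numbers did not pair the samples: over 12 same-numbered pairs the correlation of deviations ran from −0.0614 to 0.0294. With the replicate block, Cxcl14 and Ccl6 were called in control livers, and 3 members were higher at 6 h. Upper quartile scaling moved the share of lower genes among calls from 39.8% to 50.7% in control livers. A fit on counts divided by 4, chosen after seeing the data, lost none of the named calls. Where the cause of a change is not given by fewer libraries or genes, the cause was not tested.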
